A study of Homo sapiens with 8 samples.

Results

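The collagen genes were the 44 genes of the count table whose symbols consist of COL, digits, A and digits, out of 54261 genes in all, after 8 antisense and pseudogene symbols had been set aside. They comprised 11 fibrillar chains, the 6 chains of type IV collagen (the basement membrane class) and 27 chains of other types. Total RNA was sequenced in 8 libraries of cultured human cell lines. The normal group held HIEC6 and NCM460, lines of normal intestinal epithelium (n = 2 lines). The CRC group held the colorectal carcinoma (CRC) lines DLD1, HCT116 and HCT8 (n = 3 lines). The same 3 CRC lines under hypoxia formed the CRC_hypoxia group (n = 3 lines), whose oxygen level and duration are not given in the sources used here. The 8 libraries came from cells at passage 5 in DMEM with 10% fetal bovine serum. Each line and condition was 1 library, so replicates of a group were different lines, and p-values measured the spread between lines. In hypoxia fits with the line as a block, they measured how far the hypoxia difference varied between lines.

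Collagens are extracellular proteins whose alpha chains wind into a helix inside the cell, where prolyl and lysyl hydroxylases modify them, and which are then secreted, trimmed and cross-linked. Fibrillar collagens (types I, II, III, V, XI and others) build the fibres of connective tissue and are made mostly by fibroblasts. Type IV collagen forms the network of basement membranes beneath epithelia, type VII anchors that membrane to the stroma, and type XVII spans the membrane of epithelial cells at hemidesmosomes.

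Total counts ran from 45519306 to 57374239 per library. The detection floor, set at 3 counts, was 0.0523 to 0.0659 counts per 1000000 (CPM), which covers counting error only. Levels are given as CPM of the column total, and as CPM per kilobase of merged exons (CPM per kb) where genes are compared with each other. A second run label was shared by 3 libraries (NCM460, DLD1 hypoxia and HCT116 hypoxia), and the other 5 lacked it. Across all genes, the log2(CPM + 1) values of NCM460 and HCT116 correlated at 0.994, and over the 44 collagen genes at 0.949. Across all genes, untreated and hypoxia libraries of 1 line correlated at 0.994 (DLD1), 0.980 (HCT116) and 0.989 (HCT8), and NCM460 and HIEC6 at 0.924. NCM460 is therefore named by its label alone, and whether it is a line apart from HCT116 was not tested. All 8 genes of a hypoxia marker list (CA9, VEGFA, NDRG1, ADM, ANKRD37, EGLN3, PDK1 and SLC2A1) had more CPM under hypoxia in each of the 3 lines. The part of chromosome 6 with the HLA genes listed 90 of 164 protein-coding genes (54.9%) at 0 in all 8 libraries, against 11.8% of all such genes, and the low values of COL11A2, which lies in it, are read with that limit.

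Collagen counts were concentrated in few genes. Of the 44 genes, 20 reached 10 CPM in at least 1 library, 7 peaked between 1 and 10 CPM, and 17 stayed below 1 CPM in every library. Among the 17, COL9A1, COL11A1 and COL22A1 had at most 3 counts in any library. No gene (0 of 44) held 10 CPM in all 8 libraries. Some of the 20, COL5A1 and COL4A6 among them, reached it in HIEC6 alone.

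**Figure D1:**
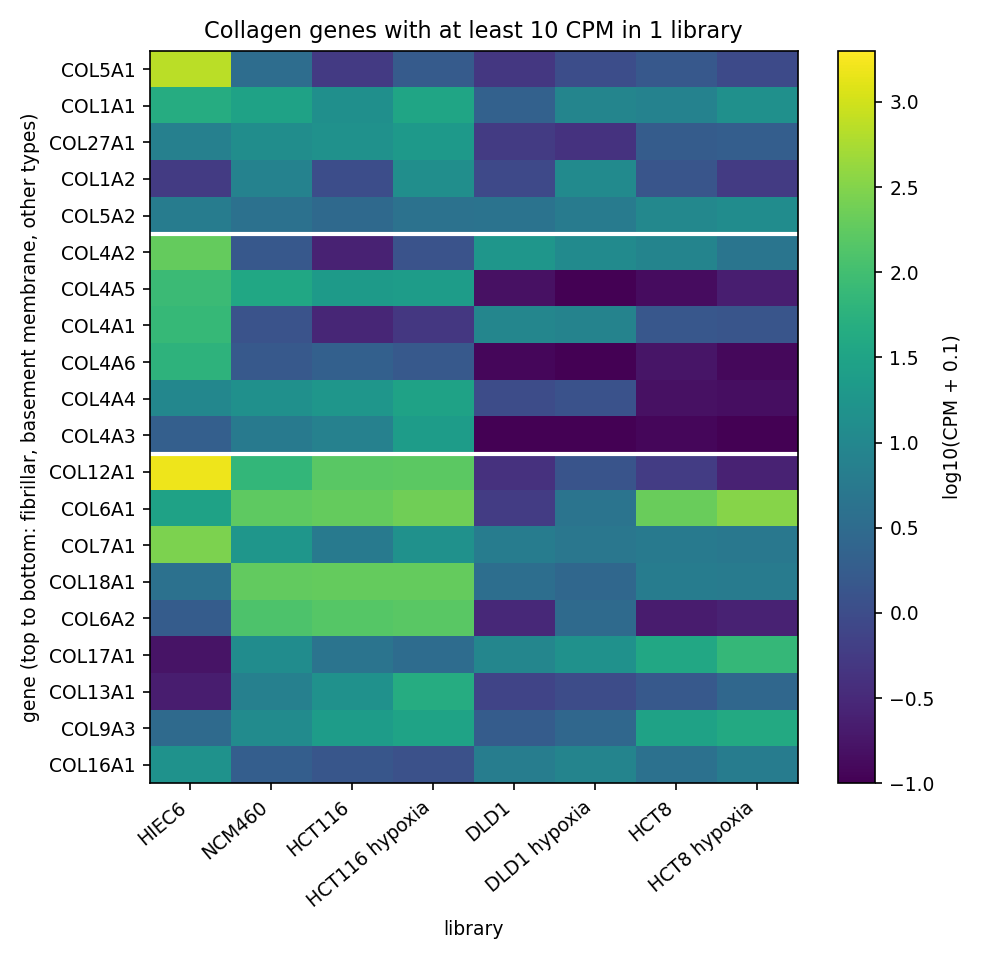
Level of the 20 collagen genes that reached 10 CPM in a library. Columns are the 8 libraries, rows the genes by class, and colour gives log10(CPM + 0.1). HIEC6 had the highest values for COL12A1 (1555 CPM), COL5A1 (723 CPM) and COL7A1 (284 CPM). COL6A2 and COL18A1 were high in NCM460 and in HCT116 without and with hypoxia. COL6A1 was high in these and in HCT8 without and with hypoxia.

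The summed CPM of the 44 genes was 3109 in HIEC6, 739.8 in NCM460, and, in the untreated CRC lines, 70.1 (DLD1), 826 (HCT116) and 329.0 (HCT8). Under hypoxia it was 107.9 (DLD1), 1025 (HCT116) and 504 (HCT8). HIEC6 stood highest and DLD1 lowest, and each hypoxia library lay above its untreated partner. COL12A1 alone took 50.01% of the collagen counts of HIEC6, and COL6A1 took 62.4% of those of HCT8.

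**Figure D2:**
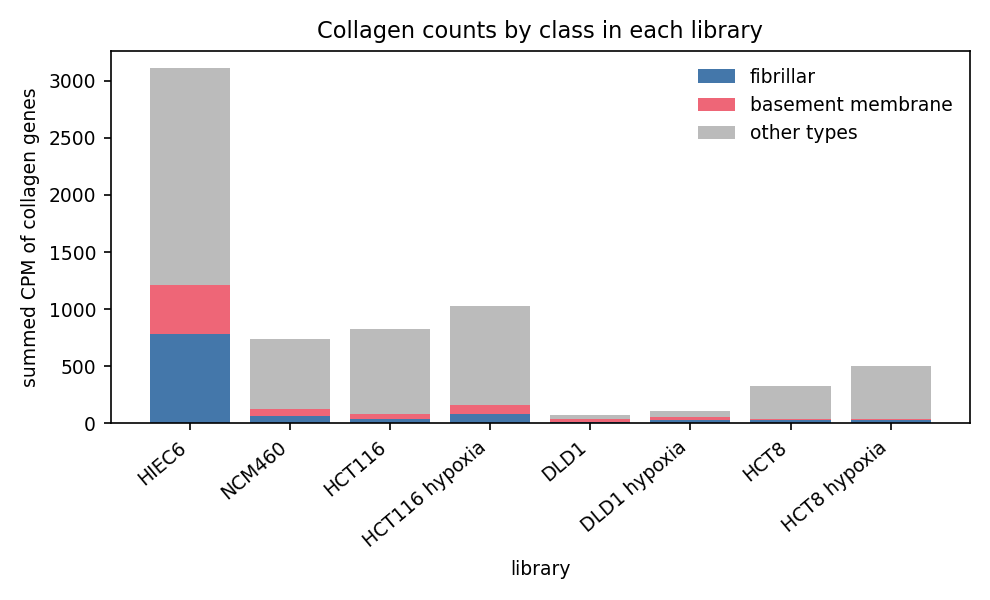
Summed CPM of the fibrillar, basement membrane and other collagen genes in each library, as stacked bars. The HIEC6 bar reaches 3109 CPM, and fibrillar genes account for 25.3% of it against 4.23% in HCT116.

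HIEC6 was first set against its label. Of 12 epithelial markers, KRT8 and KRT18 together had 8015 CPM in HIEC6, within the 3276 to 8708 CPM of the other untreated lines. The 9 markers other than the keratins 8, 18 and 20 (among them EPCAM, CDH1, KRT19 and CDX2) summed to 9.40 CPM in HIEC6 and to 1904 to 3183 CPM in the other 4 untreated lines. CDX2 and CLDN3 had at most 3 counts there. The 14 fibroblast or mesenchymal markers summed to 1435 CPM in HIEC6 and to 16.4 to 82.0 CPM in the other untreated lines, with 1223 CPM from VIM, 116.7 from FN1 and 55.7 from CDH2. Of the 14, PDGFRA, THY1 and FAP had at most 3 counts in HIEC6 and the other 11 had more, among them PDGFRB (8.60 CPM), TWIST1 (5.31 CPM) and ZEB1 (16.8 CPM). Among these 11, SPARC, TAGLN and ACTA2 had lower fitted values in HIEC6 than in the other 4 untreated lines. Their log2 fold changes were -3.02 (SE 1.56), -0.81 (SE 1.39) and -0.20 (SE 0.80). HIEC6 is therefore named below by its label alone, and the part of these markers in the collagen values was not tested.

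The comparison of HIEC6 with the other 4 untreated lines asked which collagens set the line apart. The fibrillar sum was 786 CPM in HIEC6 and 32.8 ± 22.4 CPM in the others (SD, n = 4), a ratio of 24.0. The basement membrane sum was 422.6 CPM against 37.4 ± 22.6 CPM, a ratio of 11.3. For the other types it was 1900.0 CPM against 421.1 ± 320.4 CPM, a ratio of 4.51. These ratios rested on few members: COL5A1 gave 92.0% of the fibrillar counts of HIEC6, and COL12A1 gave 81.8% of those of the other types.

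COL5A1 (ENSG00000130635, chr9:137533649-137736689, plus strand, GRCh37 as for all gene positions) encodes the main chain of type V collagen, which starts fibrils and sets their width. Its level was 723 CPM in HIEC6, 3.33 in NCM460, 0.39 in DLD1, 0.44 in HCT116 and 1.44 in HCT8. HIEC6 lay 217-fold above the highest of the others, whose mean was 1.40 ± 1.38 CPM (SD, n = 4). The log2 fold change was 9.22 (SE 1.19), with an adjusted p of 0.0523 in edgeR's quasi-likelihood test (Benjamini-Hochberg), just above the threshold of 0.05.

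COL7A1 (ENSG00000114270, chr3:48601506-48632762, minus strand), the chain of the anchoring fibrils, had 284 CPM in HIEC6, 17.8 in NCM460, 6.37 in DLD1, 5.68 in HCT116 and 5.89 in HCT8. HIEC6 again stood clear of the others, at 15.9-fold the level of NCM460. The log2 fold change was 5.19 (SE 0.70, adjusted p = 0.0556, edgeR).

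COL12A1 (ENSG00000111799, chr6:75794042-75915983, minus strand) encodes a collagen that sits on the surface of type I fibrils. It had 1555 CPM in HIEC6, 69.6 in NCM460, 0.31 in DLD1, 157.6 in HCT116 and 0.47 in HCT8. The other 4 lines fell into a pair with over 60 CPM and a pair with under 1 CPM, so the spread was wide. The log2 fold change was 4.94 (SE 2.56, adjusted p = 0.364, edgeR), and HIEC6 exceeded the highest of the others 9.87-fold.

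The 6 type IV genes lie as 3 pairs, each pair starting from neighbouring sites in opposite directions: COL4A1 with COL4A2 on chromosome 13, COL4A3 with COL4A4 on chromosome 2, and COL4A5 with COL4A6 on chromosome X. The stretch shared by the upstream windows of each pair is printed to show the sequence that the genes of a pair have in common. The sequences are those of RefSeq (GRCh38.p14, plus strand), at chr13:110307158-110307283, chr2:227164374-227164455 and chrX:108439588-108439708. Capitals mark GGGCGG (the GC box) and CCAAT, each searched on both strands as GGGCGG or CCGCCC and CCAAT or ATTGG, which do not overlap each other here.
COL4A1/COL4A2: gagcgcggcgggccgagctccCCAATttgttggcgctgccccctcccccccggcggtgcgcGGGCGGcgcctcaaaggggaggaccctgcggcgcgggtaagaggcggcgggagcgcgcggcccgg
COL4A4/COL4A3: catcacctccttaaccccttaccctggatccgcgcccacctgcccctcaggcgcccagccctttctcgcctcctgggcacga
COL4A6/COL4A5: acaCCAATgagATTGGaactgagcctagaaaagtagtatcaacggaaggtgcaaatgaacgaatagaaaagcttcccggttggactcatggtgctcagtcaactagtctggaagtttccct

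The starts of the paired genes lay 127 bases apart for COL4A1 and COL4A2, 419 for COL4A4 and COL4A3, and 380 for COL4A6 and COL4A5. The COL4A1/COL4A2 stretch held 1 match of each motif, the COL4A6/COL4A5 stretch held 2 of CCAAT, and the COL4A4/COL4A3 stretch held neither. Among all 35116 windows of 250 bases before a start, 42.6% held GGGCGG and 32.0% held CCAAT. Counted by gene, with a match in any of its windows, 21 of the 32 collagen genes held GGGCGG and 11 held CCAAT, beside 46.2% and 37.0% of all 27305 genes. A match describes these letters and is not a site shown to be bound.

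The first pair was high in HIEC6. COL4A1 had 75.0 CPM in HIEC6, 1.18 in NCM460, 9.29 in DLD1, 0.19 in HCT116 and 1.35 in HCT8. COL4A2 had 190.3, 1.44, 18.1, 0.15 and 8.72 CPM in the same order. HIEC6 exceeded the highest other line, DLD1, 8.07-fold for COL4A1 and 10.5-fold for COL4A2, and HCT116 was lowest for both. The log2 fold changes were 4.88 (SE 1.58, adjusted p = 0.204) and 5.01 (SE 1.74, adjusted p = 0.226, edgeR). These genes overlap on opposite strands, and whether the counting used strand is not given in the sources used here, so reads in the overlap cannot be told apart.

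The X-linked pair was high in HIEC6 as well. COL4A6 had 59.7 CPM in HIEC6, 1.48 in NCM460, 0.02 in DLD1, 1.99 in HCT116 and 0.08 in HCT8. COL4A5 had 86.0, 37.0, 0.06, 21.6 and 0.04 CPM in that order. HIEC6 was highest for both, by 30.0-fold for COL4A6 but by 2.33-fold for COL4A5, and DLD1 and HCT8 had at most 4 counts of either gene. The log2 fold change was 6.23 (SE 1.90, adjusted p = 0.186) for COL4A6 and 2.71 (SE 2.69, adjusted p = 0.586, edgeR) for COL4A5. The chromosome 2 pair did not follow: COL4A3 had 1.90 CPM in HIEC6, 5.81 in NCM460, 0 in DLD1, 7.79 in HCT116 and 0.02 in HCT8, and HIEC6 lay between the other lines. COL4A4 had 9.66, 14.2, 0.92, 18.01 and 0.06 CPM in that order, with HIEC6 again inside the range of the others.

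Some members were lowest in HIEC6. COL17A1, the transmembrane collagen of hemidesmosomes, had 0.07 CPM in HIEC6 (4 counts), 12.2 in NCM460, 9.26 in DLD1, 4.50 in HCT116 and 38.2 in HCT8. All 4 other lines lay above HIEC6, and the log2 fold change was -7.50 (SE 1.83, adjusted p = 0.131, edgeR). COL13A1, a transmembrane collagen of cell contacts, had 0.12 (7 counts), 7.34, 0.66, 14.6 and 1.46 CPM in that order, with a log2 fold change of -5.40 (SE 2.50, adjusted p = 0.322, edgeR). COL18A1, the basement membrane proteoglycan from which endostatin is cut, had 186.3 CPM in NCM460 and 194.1 in HCT116 but 3.95 in HIEC6, 3.50 in DLD1 and 6.21 in HCT8, so that HIEC6 was not apart from DLD1 and HCT8.

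Type VI collagen, which forms beaded filaments around cells, had its own order. COL6A1 had 30.4 CPM in HIEC6, 173.9 in NCM460, 0.49 in DLD1, 189.3 in HCT116 and 205.5 in HCT8. COL6A2 had 1.71, 126.3, 0.21, 144.0 and 0.11 CPM in that order. HCT8 was thus highest for COL6A1 and lowest for COL6A2. The fitted log2 fold changes of HIEC6 were -1.99 (SE 2.53, adjusted p = 0.672) and -5.14 (SE 4.66, adjusted p = 0.554, edgeR), in size smaller than or close to their SE.

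Of the remaining members with over 10 CPM, COL16A1, a minor collagen of fibril surfaces, had 15.3 CPM in HIEC6 and 1.30 to 6.66 in the other 4, with a log2 fold change of 2.41 (SE 0.87, adjusted p = 0.237, edgeR). COL1A1, the major chain of type I collagen, had 45.99 CPM in HIEC6, 30.0 in NCM460, 2.07 in DLD1, 13.7 in HCT116 and 7.996 in HCT8, and its log2 fold change of 1.97 (SE 1.19) had an adjusted p of 0.423 (edgeR). COL5A2 (2.83 to 10.2 CPM), COL9A3 (1.66 to 29.6 CPM) and COL27A1 (0.45 to 14.9 CPM) had HIEC6 inside the range of the other untreated lines, at 6.33, 2.94 and 7.34 CPM. COL1A2, the second chain of type I collagen, had 0.46 CPM in HIEC6 and 0.78 to 7.99 CPM in the other 4, below all of them, with a log2 fold change of -2.39 (SE 1.88, adjusted p = 0.506, edgeR).

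Of the 44 genes, 37 had at least 10 counts in 1 of the 5 untreated libraries and were tested. None of the 37 passed in edgeR's test, against 112 of 22925 genes (0.489%), and 9 of the 37 had an unadjusted p-value under 0.05, as did 18.9% of all genes. DESeq2 called 7 of 37 (COL5A1, COL7A1, COL4A1, COL4A2 and COL4A6 higher, COL17A1 and COL13A1 lower), where it called 16.1% of all genes (6.64% higher and 9.49% lower), and limma-trend called 2, where it called 4.82%. HIEC6 lay above all 4 other lines for 12 of the 37 (21.9% of all genes tested) and below all 4 for 10 of the 37 (35.3%). The median log2 fold change was 0.34 for 10 fibrillar genes, 3.80 for the 6 basement membrane genes and -2.25 for 21 genes of other types, beside -0.32 for all genes tested. The fibrillar median rested on single libraries, with 0.13 without DLD1, 0.54 without HCT116, 0.57 without NCM460 and 0.98 without HCT8. Because HIEC6 was 1 library, its spread was taken to be that of the other lines, and 7 collagen genes did not enter the test.

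Chains that assemble into one molecule were compared per kilobase. In HIEC6, COL1A1 had 5.11 CPM per kb and COL1A2, the other chain of type I collagen, 0.0424 CPM per kb (26 counts), a ratio of 120.4. In the other untreated lines the ratio lay between 3.18 and 17.5. COL5A1 exceeded COL5A2, its partner in type V, by 74.9-fold per kb in HIEC6, while COL5A2 exceeded COL5A1 in the other 7 libraries, by 1.80-fold (NCM460) to 22.1-fold (HCT8 hypoxia). COL4A1 and COL4A2 stayed closer, with 5.12 and 9.88 CPM per kb in HIEC6. COL4A5 and COL4A6 were near parity in HIEC6 (ratio 1.13), but COL4A5 was 19.5-fold higher in NCM460 and 8.50-fold higher in HCT116. COL6A1 and COL6A2 were close in NCM460 (ratio 1.33) and HCT116 (1.27), while HCT8 had 37.1 CPM per kb of COL6A1 and 0.0214 of COL6A2 (6 counts). Reads of 1 library lie behind each ratio, so these have no replicate error.

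**Figure D3:**
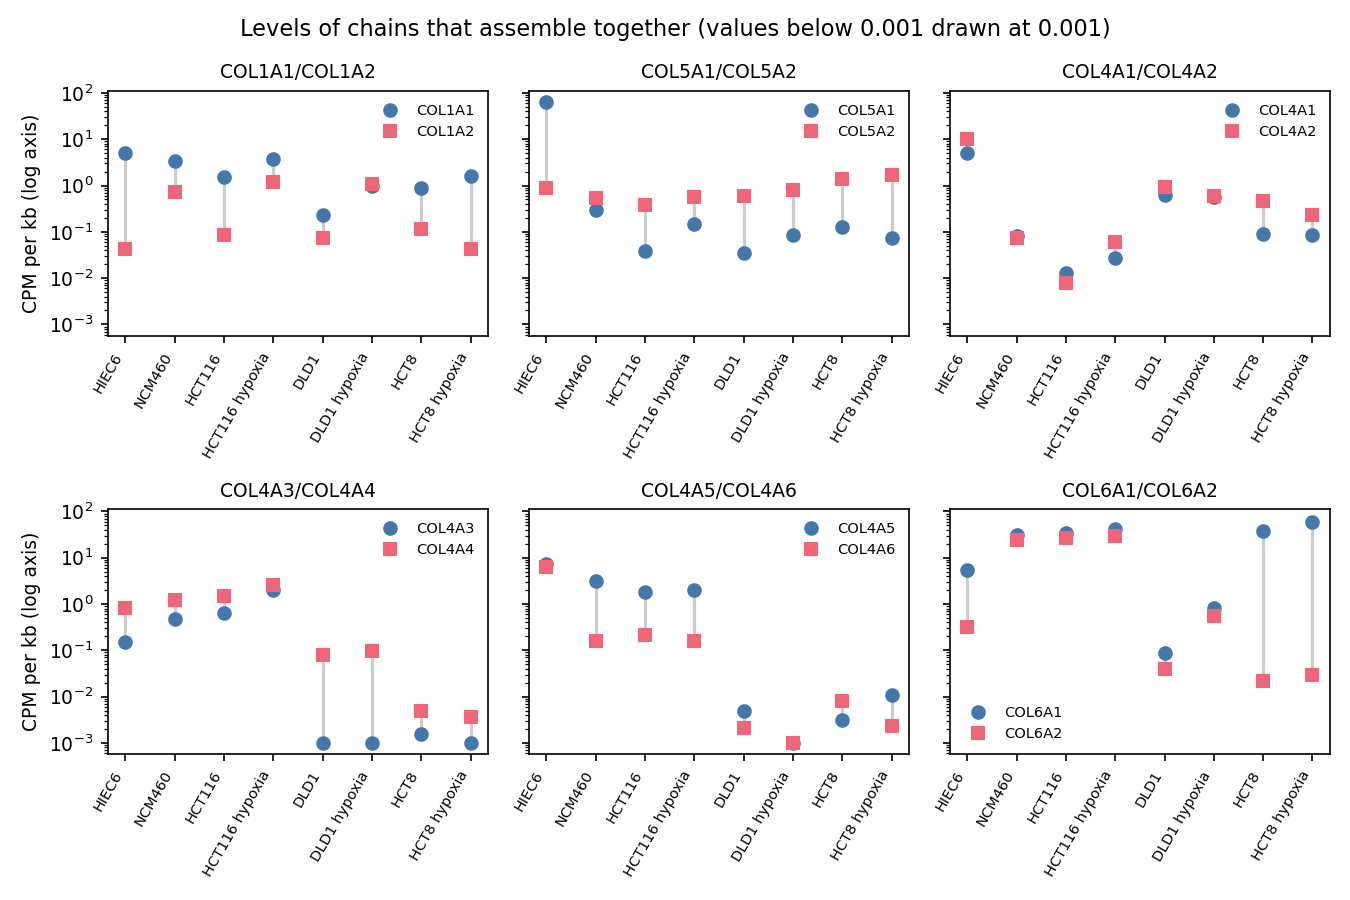
Levels of 6 pairs of partner chains in the 8 libraries, in CPM per kb on a log axis, with circles for the first and squares for the second gene of each panel and a grey line joining them. COL1A1/COL1A2 and COL5A1/COL5A2 lie far apart in HIEC6, as do COL6A1/COL6A2 in HCT8 without and with hypoxia, and the chains are close for COL4A1/COL4A2 in HIEC6.

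Genes that modify, export, process and bind collagen were counted from 7 lists with 58 genes. Of the 56 tested between HIEC6 and the other 4 lines, 0 passed in edgeR's test. Near the threshold were SERPINH1, the collagen chaperone HSP47, with a log2 fold change of 2.41 (adjusted p = 0.0558), and DDR2, a receptor for fibrillar collagen, with 5.00 (adjusted p = 0.0563, edgeR), chosen after their values were seen. SERPINH1 had 394 CPM in HIEC6 and 63.9 to 101.1 in the other untreated lines. DDR1, the other receptor of its family, was listed at 0 in all 8 libraries and lies in the chromosome 6 region described above.

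The comparison the labels set up, the 3 CRC lines against the 2 normal lines, gave no collagen call. With edgeR, 0 of 30 tested collagen genes and 0 of 19964 genes (0%) had an adjusted p under 0.05, while 3 of the 30 (COL7A1, COL5A1 and COL1A1) and 2.71% of all genes had an unadjusted p under 0.05. All 8 fibrillar and all 6 basement membrane genes tested had lower fitted values in the CRC lines, with medians of -1.80 and -3.44, and 9 of 16 genes of other types did, with a median of -0.49, beside -0.0048 for all genes. DESeq2 called 2, COL5A1 and COL7A1, where it called 0.716% of all genes. COL5A1 and COL7A1 both had their high value in HIEC6 alone, as given above. The log2 fold change of COL5A1 moved from -9.21 to -2.28 without HIEC6, and that of COL7A1 from -4.92 to -1.68. This comparison shares its 5 libraries with the one of HIEC6. Both comparisons count NCM460 and HCT116, which correlated at 0.994 across all genes, as separate lines.

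For COL1A1, both normal lines (30.0 and 45.99 CPM) lay above the 3 CRC lines (2.07 to 13.7 CPM). Other collagen genes, COL5A1, COL7A1, COL4A5 and COL26A1 among them, had the same order. The share of all genes with it was not counted, so the order is not read as a trait of collagen genes. The log2 fold change of COL1A1 in CRC against normal lines was -2.46 (SE 0.84, adjusted p = 0.999, edgeR). This difference did not pass over all genes, and it lay between -3.20 and -2.00 with each library left out.

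Hypoxia was compared with no treatment within each of the 3 CRC lines. COL1A1 (ENSG00000108821, chr17:48261462-48278993, minus strand) had 2.07 CPM in DLD1 and 8.96 in DLD1 hypoxia, 13.7 in HCT116 and 33.2 in HCT116 hypoxia, and 7.996 in HCT8 and 14.2 in HCT8 hypoxia. Each hypoxia library lay above its partner, by 2.11, 1.28 and 0.83 on the log2 scale, although the groups overlapped. The log2 fold change with the line as a block was 1.53 (SE 0.29, adjusted p = 0.0617, edgeR), just above the threshold, and it was 1.496 (SE 0.89, adjusted p = 0.9999) without the block. DESeq2 with the block gave an adjusted p of 1.57e-04. NCM460 exceeded HCT116, both untreated, by 2.20-fold for this gene.

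COL6A1 and COL9A3 were higher in each hypoxia library too. COL6A1 had 0.49 and 4.46 CPM in DLD1 without and with hypoxia, 189.3 and 236.4 in HCT116, and 205.5 and 328 in HCT8. The largest difference was that of DLD1, at 3.19 on the log2 scale, from the lowest level. With the block, the log2 fold change was 1.32 (SE 0.43, adjusted p = 0.168, edgeR). COL9A3, a chain of the fibril-associated type IX collagen, had 1.66 and 2.61 CPM in DLD1, 24.1 and 31.3 in HCT116, and 29.6 and 40.5 in HCT8, a log2 fold change of 0.63 (SE 0.20, adjusted p = 0.164, edgeR) with the block.

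The transmembrane collagens divided. COL13A1 had 0.66 and 0.91 CPM in DLD1 without and with hypoxia, 14.6 and 46.6 in HCT116, and 1.46 and 2.64 in HCT8. It was higher in all 3 pairs, with a log2 fold change of 1.20 (SE 0.34, adjusted p = 0.130, edgeR) with the block. COL17A1 had 9.26 and 15.0 CPM in DLD1, 4.50 and 3.21 in HCT116, and 38.2 and 73.4 in HCT8, so that HCT116 went the other way, and the blocked log2 fold change was 0.54 (SE 0.26, adjusted p = 0.311, edgeR).

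Of the 35 collagen genes tested, 0 passed in edgeR without the block, where 0 of 21045 genes (0%) did, and 2 of the 35 had an unadjusted p under 0.05, as did 2.88% of all genes. With the block 0 of 35 passed, against 200 genes (0.95%), and 10 of the 35 had an unadjusted p under 0.05, as did 18.5% of all genes. DESeq2 called 0 of 35 without the block (0.261% of all genes) and 5 with it (COL1A1, COL1A2, COL6A1, COL9A3 and COL13A1, all higher, where 7.92% of all genes were called and 4.54% were called higher), and limma-trend called 0. Among the 19 collagen genes with more than 3 counts in all 6 libraries, 7 were higher in all 3 pairs (COL1A1, COL5A2, COL6A1, COL6A2, COL9A3, COL13A1 and COL28A1), where 16.6% of 16316 genes were, and 1 was lower in all 3 (COL18A1), where 31.2% were. With TMM library sizes the counts were 8, where 23.9% of all genes were higher, and 0, where 24.9% were lower. COL18A1 hardly moved, with log2 differences of -0.42 (DLD1), -0.02 (HCT116) and -0.02 (HCT8). The blocked medians were 1.30 for the fibrillar genes, 0.35 for the basement membrane genes and 0.65 for the other types, beside 0.03 for all genes. The summed CPM of the basement membrane genes fell under hypoxia in DLD1 (0.72-fold) and HCT8 (0.59-fold) and rose in HCT116 (1.63-fold). The fibrillar sum rose 3.35-fold in DLD1, 2.27-fold in HCT116 and 1.31-fold in HCT8. COL1A2 gave 35.9% of the fibrillar sum of DLD1 hypoxia, and the blocked fibrillar median of 1.30 was the value of COL3A1. Both genes are set beside the second run label below.

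**Figure D4:**
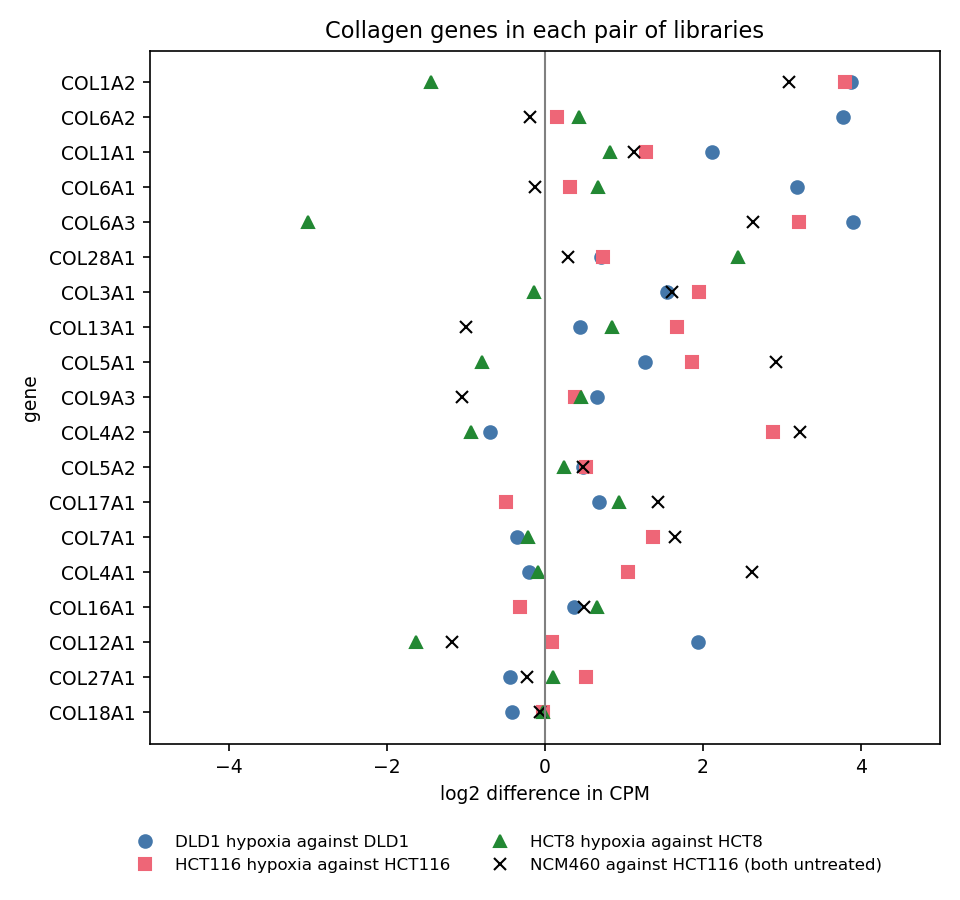
Log2 difference in CPM between hypoxia and no treatment for the 19 collagen genes with at least 1 CPM in a library and reads enough in all 3 lines, with circles for DLD1, squares for HCT116 and triangles for HCT8. Crosses give NCM460 minus HCT116, both untreated. COL1A2, COL3A1 and COL6A3 are positive in DLD1 and HCT116 and below 0 in HCT8, and their crosses lie near those of DLD1 and HCT116.

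For a group of fibrillar and beaded filament genes, the DLD1 and HCT116 pairs differed from the HCT8 pair. COL1A2 had 0.78 CPM in DLD1 and 11.5 under hypoxia, 0.94 and 13.1 in HCT116, and 1.25 and 0.46 in HCT8. COL6A3, the long chain of type VI collagen, had 0.41 and 6.12 CPM in DLD1, 0.78 and 7.29 in HCT116, and 0.70 and 0.09 (4 counts) in HCT8. COL3A1, the chain of type III collagen, had 1.43 and 4.15, 1.30 and 5.04, and 1.06 and 0.97 CPM. All of these were several-fold higher under hypoxia in DLD1 and HCT116, and not in HCT8, whose pair has no second run label. The difference between lines was not tested.

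The same genes were high in untreated NCM460, the third library with the second run label. NCM460 had 7.99 CPM of COL1A2, 4.86 of COL6A3 and 3.98 of COL3A1. HIEC6, which lacks the label, had 0.46, 0.09 and 1.16 CPM. NCM460 exceeded HCT116 by 8.52-fold for COL1A2, 6.19-fold for COL6A3 and 3.06-fold for COL3A1. COL8A1, a chain of a network-forming collagen, had 12, 30 and 44 counts in NCM460, DLD1 hypoxia and HCT116 hypoxia, and 0 counts in the other 5 libraries.

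Of 35 collagen genes with at least 10 counts in 2 or more libraries, these 4 (11.4%) were higher in all 3 libraries with the second run label than in all 5 without it, against 161 of 21647 genes (0.744%). Of 13 fibroblast or mesenchymal markers tested, 2 (PDGFRA and DCN) showed the same order. COL8A1, PDGFRA and DCN reached 10 counts only in libraries with the label, so the filter favoured this order for them. How many of the 161 genes did so was not counted. COL1A2, COL3A1 and COL6A3 reached 10 counts in libraries without the label too. The summed level of the 14 markers was 82.0, 81.8 and 146.0 CPM in the 3 libraries with the label. In the 5 without it, the sum was 16.4 in DLD1, 44.3 in HCT116, 31.1 in HCT8, 29.2 in HCT8 hypoxia and 1435 in HIEC6. The part of the run or of these markers in the collagen values was not tested. With the label as a term beside the block, the fitted hypoxia values rest on the HCT8 pair: they were -1.43 for COL1A2, -2.95 for COL6A3 and -0.13 for COL3A1, and 0.84 (SE 0.50, adjusted p = 0.942, edgeR) for COL1A1. In that fit 0 collagen genes passed, against 3 genes of 21045 (0.0143%). Across all 6 CRC libraries, the first run label also divides hypoxia from no treatment, and run and treatment cannot be told apart.

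**Figure D5:**
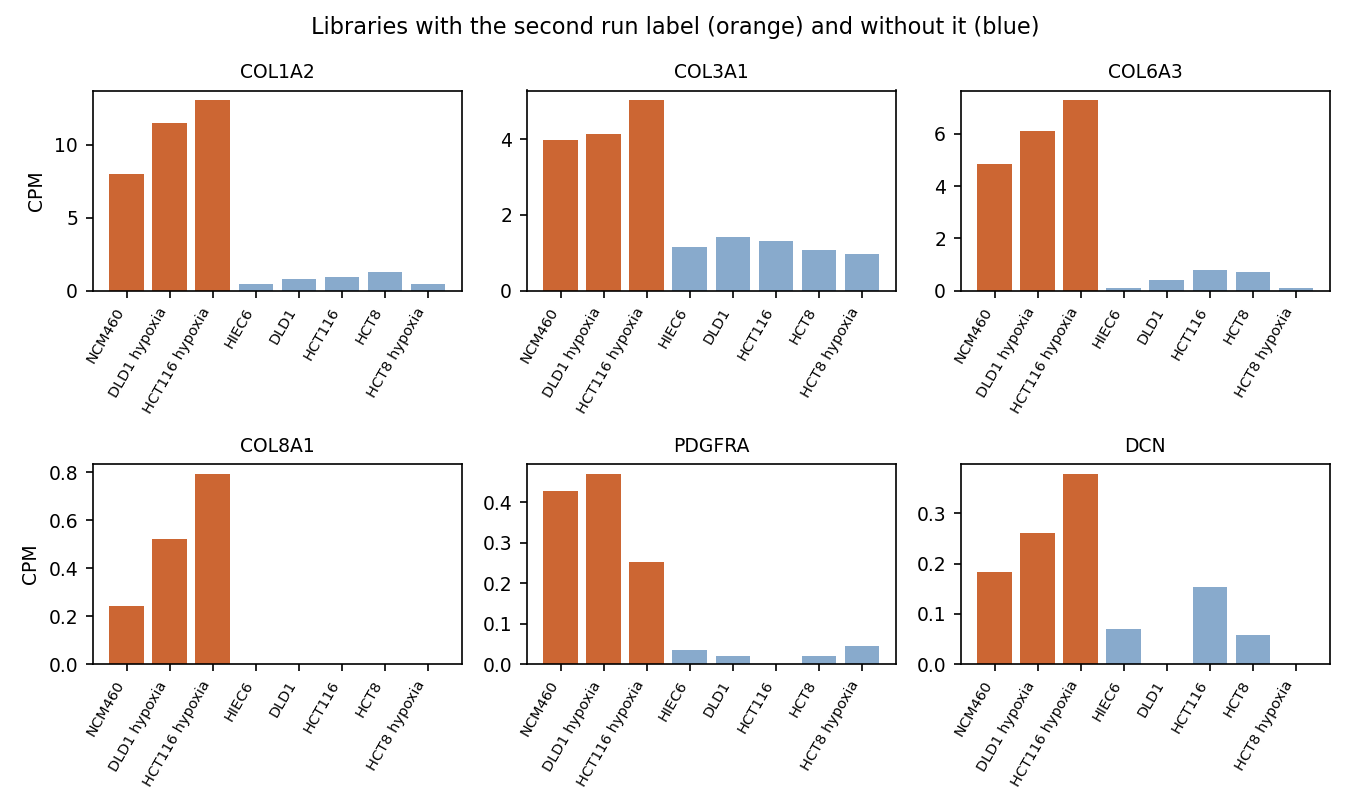
CPM of COL1A2, COL3A1, COL6A3, COL8A1 and the fibroblast markers PDGFRA and DCN in the 8 libraries, as bars from 0 with a scale of its own in each panel. Orange bars are the 3 libraries with the second run label (NCM460, DLD1 hypoxia and HCT116 hypoxia), which are higher in every panel than the 5 blue bars without it.

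Genes that modify collagen chains included the genes that passed under hypoxia with the block. PLOD2, a lysyl hydroxylase that prepares collagen for cross-linking, had 78.6 CPM in DLD1 and 332 under hypoxia, 31.1 and 224.0 in HCT116, and 56.9 and 549 in HCT8. P4HA1, the catalytic subunit of a prolyl 4-hydroxylase, had 54.4 and 136.9 CPM in DLD1, 39.1 and 413.5 in HCT116, and 49.0 and 326 in HCT8. P4HA2, its homologue, had 62.7 and 99.3, 43.9 and 97.3, and 62.8 and 187.3 CPM. Each of these genes, named because it passed, was higher under hypoxia in all 3 pairs, HCT8 included, as were 16.6% of 16316 genes.

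With the block, PLOD2 rose by 2.87 on the log2 scale (SE 0.27, adjusted p = 0.00564), P4HA1 by 2.63 (SE 0.42, adjusted p = 0.0349) and P4HA2 by 1.27 (SE 0.22, adjusted p = 0.0472, edgeR). They were the 3 genes called of 56 tested in the 7 lists, where 0.95% of all genes were called, all 3 from the list of 15 hydroxylation and glycosylation genes, where 7 of 15 had higher and 8 lower fitted values. Without the block none of the 56 passed in edgeR, while the log2 fold changes were 2.81 (PLOD2), 2.83 (P4HA1) and 1.28 (P4HA2). DESeq2 without the block called PLOD2 (adjusted p = 1.22e-05) and P4HA1 (adjusted p = 0.00119) but not P4HA2 (adjusted p = 0.0661). With the second run label as a term beside the block, the log2 fold changes were 3.28 (SE 0.50), 2.75 (SE 0.70) and 1.59 (SE 0.44), and the adjusted p-values were 0.0932, 0.384 and 0.478 (edgeR). With the block and without the HCT8 pair, the log2 fold changes were 2.66 (PLOD2), 2.56 (P4HA1) and 1.10 (P4HA2), with adjusted p-values of 0.1003, 0.320 and 0.444 (edgeR), where 0.0304% of all genes were called. The other 6 lists (export, processing, cross-linking, receptors, laminins and other basement membrane partners, hemidesmosome partners) had no call.

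The 250 bases before the starts of P4HA1 (chr10:73096867-73097116) and PLOD2 (chr3:146161185-146161434), both on the minus strand of GRCh38.p14 in RefSeq, are printed since these genes passed. Capitals mark ACGTG, a form of the core of the hypoxia response element, searched on both strands as ACGTG or CACGT. The other form, GCGTG, was not searched.
P4HA1: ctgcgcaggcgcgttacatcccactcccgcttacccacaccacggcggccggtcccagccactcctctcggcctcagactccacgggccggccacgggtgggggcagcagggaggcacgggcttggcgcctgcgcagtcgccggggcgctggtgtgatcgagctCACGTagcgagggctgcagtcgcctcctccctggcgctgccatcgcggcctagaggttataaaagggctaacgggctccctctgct
PLOD2: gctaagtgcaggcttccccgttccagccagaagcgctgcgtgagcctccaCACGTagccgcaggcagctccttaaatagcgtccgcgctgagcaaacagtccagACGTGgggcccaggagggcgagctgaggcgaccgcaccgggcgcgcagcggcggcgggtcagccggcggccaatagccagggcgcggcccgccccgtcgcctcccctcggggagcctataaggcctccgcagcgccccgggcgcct

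The P4HA1 window held 1 match and the PLOD2 window 2, while the P4HA2 window held none. Of all 35116 windows 18.5% held the motif. Counted by gene, 6 of the 32 collagen genes did, beside 21.7% of all genes. The 6 were COL4A3, COL5A1, COL6A6, COL11A2, COL12A1 and COL15A1. Of the collagen genes higher in every hypoxia pair, COL6A2, COL13A1 and COL28A1 had windows without a match. COL1A1, COL5A2, COL6A1 and COL9A3 had no window to search.

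Members with lower levels showed scattered values. COL8A2, a network-forming collagen, had 35 counts in HCT8 and 84 in HCT8 hypoxia and at most 3 elsewhere. COL9A2 was highest in HIEC6 at 5.52 CPM, with 3.68 in HCT116, 1.63 in NCM460 and 0 in DLD1. COL6A6 had 28 counts in DLD1 hypoxia and 0 in the other 7 libraries. COL20A1 peaked at 1.14 CPM in NCM460, COL21A1 at 1.17 CPM in DLD1 hypoxia and COL28A1 at 1.73 CPM in DLD1 hypoxia. COL9A3, COL18A1 and COL10A1 overlap genes on the opposite strand, so their counts may include reads of those genes.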

How the data were processed

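Total RNA of 8 libraries was sequenced after depletion of ribosomal RNA. Per the labels and the study's methods, the authors mapped clean reads to GRCh37.p13, and the submitters' processing notes name HISAT2 2.0.4 and GRCh38. The deposited values are raw counts per gene, and the counter, its use of strand and its treatment of reads with several matches are not given in the sources used here. All columns were used (0 left aside).

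Groups came from the labels. The filter asked for 10 counts or more in 2 libraries of a fit (1 library for HIEC6), and the test was edgeR 4.0.16 (glmQLFit and glmQLFTest, TMM, Benjamini-Hochberg, threshold 0.05) in R 4.3.3, with DESeq2 1.42.0 and limma 3.58.1 (limma-trend) as alternatives. SE is the log2 fold change over the root of F. The replicate number is the cell line in the hypoxia comparison and pairs the samples: same-line deviations from group means correlated at 0.859 to 0.873, others at -0.619 to -0.0917. Exon lengths and positions are from GENCODE 44 lifted to GRCh37. Promoter windows are the 250 bases before each RefSeq start (GRCh38.p14), held for 32 of 44 genes. The fits were tested on simulated counts. The members, the gene lists and the tests were chosen with earlier results of these data known. Named in full are collagen genes with at least 10 CPM in 1 library, called in a fit, or changed at least 2-fold in all 3 hypoxia pairs with at least 100 counts in each, and pathway genes called in a fit, at most 4 a list. COL3A1, COL6A3, COL8A1 and other genes outside this rule were chosen after their values were seen. Alternatives were other normalizations, other filters, all 8 libraries in 1 fit, the line as a block and each library left out. The fit with the second run label and the pair counts with TMM library sizes were chosen after seeing the data. One pathway gene is not reported here.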

Additional observations from a re-analysis of the deposited data

How the results depend on the processing

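Between HIEC6 and the other 4 untreated lines, edgeR called 0 collagen genes, and this count stayed 0 without TMM, with upper-quartile normalization and with each library left out. With a library left out, at most 5 genes in all were called. The count of collagen genes was 7 with DESeq2 (16.1% of all genes called) and 2 each with limma-trend (4.82%), without a filter (0.785%), with at least 10 counts in every library (0.972%), with all 8 libraries in 1 fit (2.25%) and against all 7 other libraries (4.31%). The median log2 fold change of the other types (-2.25) was -2.51 without TMM, -0.98 with limma-trend, 0.17 with 10 counts in every library, -4.36 against all 7 other libraries, and -4.31 (without HCT8) to -1.84 (without NCM460) with a library left out. That of the basement membrane genes (3.80) was 5.99 with limma-trend, and that of the fibrillar genes (0.34) ranged from 0.13 to 0.98 with a library left out.

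Between the CRC and normal lines DESeq2 called 2 collagen genes and every other alternative run called 0. With a library left out, the fibrillar median ranged from -2.72 to -1.30, that of the basement membrane genes from -6.65 (without HCT116) to -1.16 (without HIEC6), and that of the other types from -1.91 to 2.46 (without NCM460). The last was also -0.66 with limma-trend, 0.031 without a filter, -0.93 with 10 counts in every library, -0.20 in the fit of all 8 and -0.30 with the replicate block, in which the numbers tie unlike lines together.

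Under hypoxia the count stayed 0 except with the replicate block in DESeq2 (5, where 7.92% of all genes were called) and with the block without HCT116 (2, COL1A1 and COL17A1, where 3.78% were). The fibrillar median was 0.74 without TMM, 1.30 with the block and 1.31 with the block in DESeq2, and that of the other types was 0.49 without TMM. With a library left out, the fibrillar median ranged from 0.54 to 1.997, that of the basement membrane genes from -0.67 to 0.79 and that of the other types from 0.094 to 1.03. With the block and DLD1 left out, the basement membrane and other medians were 0.80 and 0.50. Without HCT116 the fibrillar median was 0.37, and without HCT8 the 3 medians were 1.49, 0.61 and 0.90. With the second run label as a term they were 0.26, -0.64 and 0.26, and COL1A2 (-1.43), COL3A1 (-0.13) and COL6A3 (-2.95) changed sign, since that fit rests on the HCT8 pair. Without the block, COL13A1 ranged from -1.80 (without HCT116 hypoxia) to 4.48 (without HCT116) with a library left out, and COL17A1 from -0.73 (without HCT8 hypoxia) to 2.06 (without HCT8). Where no other reason is given, the cause was not tested. Over the named genes, 5 of 409 alternative values changed sign, 364 kept direction and side of the threshold, and 40 kept direction and passed it. Depth was not varied, and each line and condition was 1 library.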
